A study of Mus musculus with 8 samples.

Results

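Ifitm1, Ifitm2 and Ifitm3 are the interferon-induced transmembrane protein genes that lie close together on mouse chromosome 7, and their RNA was followed in 8 libraries of mouse embryonic stem cells. They were taken by symbol, 3 of the 49641 gene entries of the expression table, and were picked because their levels in these same libraries were already known to differ between groups. Their values are therefore given as a description, without tests. Each of the 4 groups has 2 libraries. WT is the mock-transfected V6.5 line, an embryonic stem cell line of the strain background 129/C57BL/6. Dgcr8 KO is a mock-transfected line without functional Dgcr8, the partner of the nuclease Drosha, so that it lacks canonical microRNAs. The miR-294 group is Dgcr8 KO cells given a mimic of miR-294, a microRNA of the miR-290 family that is abundant in embryonic stem cells. The siMbnl1/2 group is Dgcr8 KO cells given siRNAs against the splicing regulators Mbnl1 and Mbnl2. Mimic and siRNAs were used at 50 nM, 16 hours after plating. The 3 groups other than WT all carry the Dgcr8 deletion. All cells are labelled V6.5, but the column names call the knockout ES1, so whether both descend from 1 line is unknown, and lines and knockout cannot be told apart. Whether a sample grew on gelatin or on irradiated fibroblasts is not given, and nothing says that replicates were separate cultures, so every error and p-value measures the spread between these libraries only.

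Interferon-induced transmembrane proteins are small proteins of the plasma membrane and of endosomes that stiffen membranes and so hinder the entry of enveloped viruses. In most cells they are switched on by interferon, which acts through receptors, Janus kinases and the factors that these kinases activate. Stem cells are known to express them without added interferon, and Ifitm3 (also called Fragilis) and Ifitm1 are long known as markers of early germ cells in the mouse. Ifitm3 acts mainly in endosomes. Ifitm1, whose protein lacks the long start that carries the endocytic signal of Ifitm3, stays largely at the cell surface.

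The label checks came out as follows. Dgcr8 was at 22.4 ± 0.662 FPKM (mean ± SD, n = 2) in WT and 8.19 ± 0.432 in Dgcr8 KO, a difference in mean log2(FPKM + 1) of -1.35 ± 0.10 (SE, adjusted p = 3.47e-05). Gene-level values do not show which exons remain. FPKM counts fragments per kilobase of transcript, scaled by the mapped fragments of each library, so it sets genes of different length side by side, and adjusted p-values are Benjamini-Hochberg values from limma over 12786 genes with a mean of at least 1 FPKM. Against Dgcr8 KO, Mbnl2 fell by 1.01 ± 0.12 with the siRNAs (adjusted p = 0.0191, a call lost in 7 of 15 alternatives, with adjusted p-values reaching 0.137, among them those without any one WT or miR-294 library and the one without Dgcr8 KO replicate 2), and Mbnl1 differed by -0.31 ± 0.10 (adjusted p = 0.158). All 10 embryonic stem cell markers were above 1 FPKM in every group, with sums of 5809 to 5864 FPKM in WT, 6286 to 6816 in Dgcr8 KO, 6060 to 6202 after the mimic and 7628 to 7631 after the siRNAs. In Dgcr8 KO 4 of them rose and 3 fell, where 29.6% of all genes rose and 30.1% fell. Sox2 (1.03), Utf1 (-0.89), Nanog (0.87) and Zfp42 (-0.51) changed most. Summed over 15 fibroblast markers the FPKM was between 24.2 and 32.4 in all libraries. Dcn and Lum were at or near 0, Dcn at a mean of 0 in WT and 0.0398 in Dgcr8 KO. The collagen genes Col1a1 (0.403 in WT, 0.075 in Dgcr8 KO) and Col1a2 (0.373 and 0.00627) were higher in WT, all under 1 FPKM. Of the 5 fibroblast markers tested, Pdgfra (-2.52) fell in Dgcr8 KO and Twist1 (0.66), Fbln1 (0.59) and Col5a1 (0.41) rose, against the same shares of all genes. Fewer of them were called without Dgcr8 KO replicate 1. The 9 blood and immune markers summed to 12.7 to 13.4 in the WT libraries, to 18.6 to 22.7 in those of Dgcr8 KO, to 19.8 to 21.6 after the mimic and to 28.8 to 30.8 after the siRNAs. The lysosomal gene Cd68 rose from 8.87 ± 0.0298 FPKM in WT to 16.5 ± 2.29 in the knockout (0.82 ± 0.10), and the pan-leukocyte gene Ptprc was near 0. The part of other cells in the values below was not tested.

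In the mm10 assembly Ifitm1 (ENSMUSG00000025491.14) spans chr7:140967221-140969825 on the plus strand, Ifitm2 (ENSMUSG00000060591.9) chr7:140954837-140955987 on the minus strand and Ifitm3 (ENSMUSG00000025492.6) chr7:141009586-141010770 on the minus strand. The cluster is 55.9 kb long. GENCODE M21 gives 3 transcripts for Ifitm1 and 1 each for Ifitm2 and Ifitm3. The coding sequences hold 106, 144 and 137 codons. Aligned over their shared length, the coding sequences of Ifitm1 and Ifitm2 were 80.3% identical, those of Ifitm1 and Ifitm3 81.1%, and those of Ifitm2 and Ifitm3 79.9%. The longest stretch of identical bases between transcripts was 40 for Ifitm1 and Ifitm2, 64 for Ifitm1 and Ifitm3 and 69 for Ifitm2 and Ifitm3. A read that lies within such a stretch fits both genes, and the read length is not given, so the split between the genes is uncertain to that extent.

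The promoters are shown because the 3 genes differed in how far they moved and because the letters that interferon factors bind are known. They cover 250 bases before to 50 after the RefSeq start (assembly GRCm38.p6, 5′ to 3′ on the strand of the gene), and all 3 genes were matched. Capitals mark the core of the interferon-stimulated response element, that is GAAA, any 2 bases and again GAAA, searched on both strands.
Ifitm1, chr7:140967826-140968125, plus strand: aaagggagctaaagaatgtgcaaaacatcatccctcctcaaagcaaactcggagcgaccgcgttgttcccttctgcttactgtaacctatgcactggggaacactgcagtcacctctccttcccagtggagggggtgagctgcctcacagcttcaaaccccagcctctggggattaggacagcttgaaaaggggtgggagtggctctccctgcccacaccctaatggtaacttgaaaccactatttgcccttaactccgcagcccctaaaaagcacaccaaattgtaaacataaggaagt
Ifitm2, chr7:140955912-140956211, minus strand: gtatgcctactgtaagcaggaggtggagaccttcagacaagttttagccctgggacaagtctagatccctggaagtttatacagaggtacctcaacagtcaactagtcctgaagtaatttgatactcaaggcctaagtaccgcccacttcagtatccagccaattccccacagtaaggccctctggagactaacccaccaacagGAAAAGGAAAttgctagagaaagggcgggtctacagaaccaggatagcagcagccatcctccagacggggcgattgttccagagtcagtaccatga
Ifitm3, chr7:141010695-141010994, minus strand: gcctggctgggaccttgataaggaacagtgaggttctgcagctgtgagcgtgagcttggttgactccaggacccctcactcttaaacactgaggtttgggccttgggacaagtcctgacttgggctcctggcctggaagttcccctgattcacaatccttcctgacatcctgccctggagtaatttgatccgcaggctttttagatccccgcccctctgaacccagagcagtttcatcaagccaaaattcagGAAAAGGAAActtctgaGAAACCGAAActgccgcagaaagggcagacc
The Ifitm2 window held 1 match, starting 46 bases before the start, and the Ifitm3 window held 2, both just after it. The first Ifitm3 match has the same letters as the Ifitm2 match, GAAAAGGAAA, and the second reads GAAACCGAAA. The Ifitm3 window also held the Stat core TTCNNNGAA once, as TTCTGAGAA, which overlaps the second capital run. No such core was found in the Ifitm1 window, although 2 of its 3 GENCODE transcripts start inside that window and the third starts upstream of it, at 140967221. Neither the E-box CACGTG nor the octamer ATGCAAAT was found in any of the 3 windows. Over 32851 RefSeq windows of this length, 3.44% held the interferon element core, 8.3% TTCNNNGAA, 7.15% CACGTG and 1.74% ATGCAAAT. Among the other interferon-stimulated genes described below, 17 of 37 matched symbols (45.9%) had that core in their windows, against 3.99% of all 27025 symbols. Such a match is a description of letters and does not show that a factor binds.

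The mimic is shown beside the single place in the transcripts that pairs with part of its seed. The mature miR-294, from chr7:3220691-3220712 on the plus strand in RefSeq, has its seed, bases 2 to 8, in capitals.
miR-294-3p: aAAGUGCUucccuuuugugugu
Ifitm3 3′ UTR, chr7:141009591-141009614, minus strand: caataaagtGCACTTgataaccac
The full seed match AGCACTT was in none of the transcripts of the 3 genes, in or outside the 3′ UTR. Ifitm3 alone had the shorter GCACTT, which pairs with bases 2 to 7, at base 123 of its 142-base 3′ UTR (stop codon included). The 3′ UTRs of Ifitm1 and Ifitm2, 202 and 151 bases long, had neither. Of 21685 mouse genes with an annotated 3′ UTR, 27.7% hold GCACTT and 14.3% AGCACTT, and among the 1881 with a 3′ UTR as short as these the shares are 3.62% and 1.33%.

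Ifitm1 moved the most of the 3 genes. It was at 58.3 and 61.6 FPKM in the WT libraries and at 926 and 684 in Dgcr8 KO. With miR-294 it was at 183 and 191, and with siMbnl1/2 at 937 and 1148. No 2 groups overlapped, and the order of levels from low to high was WT, miR-294, Dgcr8 KO and siMbnl1/2. The Dgcr8 KO mean of 805 ± 171 FPKM was 13.4-fold the WT mean of 60.0 ± 2.35, a difference of 3.71 ± 0.15 on the log2(FPKM + 1) scale. The miR-294 mean of 187 ± 5.93 was 4.30-fold below Dgcr8 KO (-2.08 ± 0.15) and 3.12-fold above WT (1.63 ± 0.15). So after the mimic Ifitm1 lay between WT and Dgcr8 KO, with close replicates. The siMbnl1/2 mean of 1042 ± 149 was 1.29-fold that of Dgcr8 KO (0.38 ± 0.15), and the lower siMbnl1/2 library exceeded the higher Dgcr8 KO library by a narrow margin (937 against 926). Without Dgcr8 KO replicate 2 that difference was 0.16, and without replicate 1 it was 0.60. Ranked by level among the 12786 genes, Ifitm1 held place 1540 in WT, whereas Dgcr8 KO had it at place 87, miR-294 at 405 and siMbnl1/2 at 70.

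Ifitm3, the endosomal restriction factor, was at 229 and 226 FPKM in WT and at 616 and 549 in Dgcr8 KO. It was at 242 and 249 with miR-294 and at 547 and 522 with siMbnl1/2. Its libraries formed a low pair of groups, WT and miR-294, and a high pair, Dgcr8 KO and siMbnl1/2. The Dgcr8 KO mean of 583 ± 47.2 was 2.56-fold the WT mean of 227 ± 1.71 (1.35 ± 0.07). With miR-294 the mean of 246 ± 5.39 was 2.37-fold below Dgcr8 KO (-1.24 ± 0.07) and 1.08-fold above WT (0.11 ± 0.07). The siMbnl1/2 mean of 535 ± 17.2 was 0.918 times that of Dgcr8 KO (-0.12 ± 0.07), the opposite sign to Ifitm1. That difference was -0.04 without Dgcr8 KO replicate 1 and -0.20 without replicate 2. Within each pair the 2 groups lay close together but did not overlap: the higher siMbnl1/2 library was at 547 and the lower Dgcr8 KO library at 549. Ifitm3 held place 344 by level in WT, 289 with miR-294, 129 with siMbnl1/2 and 123 in Dgcr8 KO.

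Ifitm2, which is also interferon-inducible, was abundant in every library and varied the least. It was at 344 and 337 FPKM in WT and at 481 and 370 in Dgcr8 KO. After the mimic it was at 322 and 339, and after the siRNAs at 424 and 533. WT and miR-294 overlapped, and so did Dgcr8 KO and siMbnl1/2, while both Dgcr8 KO libraries were above all WT and miR-294 libraries. The Dgcr8 KO mean of 425 ± 78.4 was 1.25-fold the WT mean of 340 ± 4.73 (0.31 ± 0.14), and the miR-294 mean of 331 ± 11.8 was 1.29-fold below Dgcr8 KO (-0.35 ± 0.14). These differences rest on Dgcr8 KO replicate 1: without it they were 0.12 and -0.16. Under quantile normalization they were 0.59 and -0.58. The siMbnl1/2 mean of 478 ± 77.0 differed from Dgcr8 KO by 0.17 ± 0.14, and by -0.02 without Dgcr8 KO replicate 2. Against WT the miR-294 group differed by -0.04 ± 0.14, a sign that turned under median-of-ratios scaling (0.02) and quantile normalization (0.02). Ifitm2 held a place between 140 and 225 by level in all 4 groups.

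**Figure D1:**
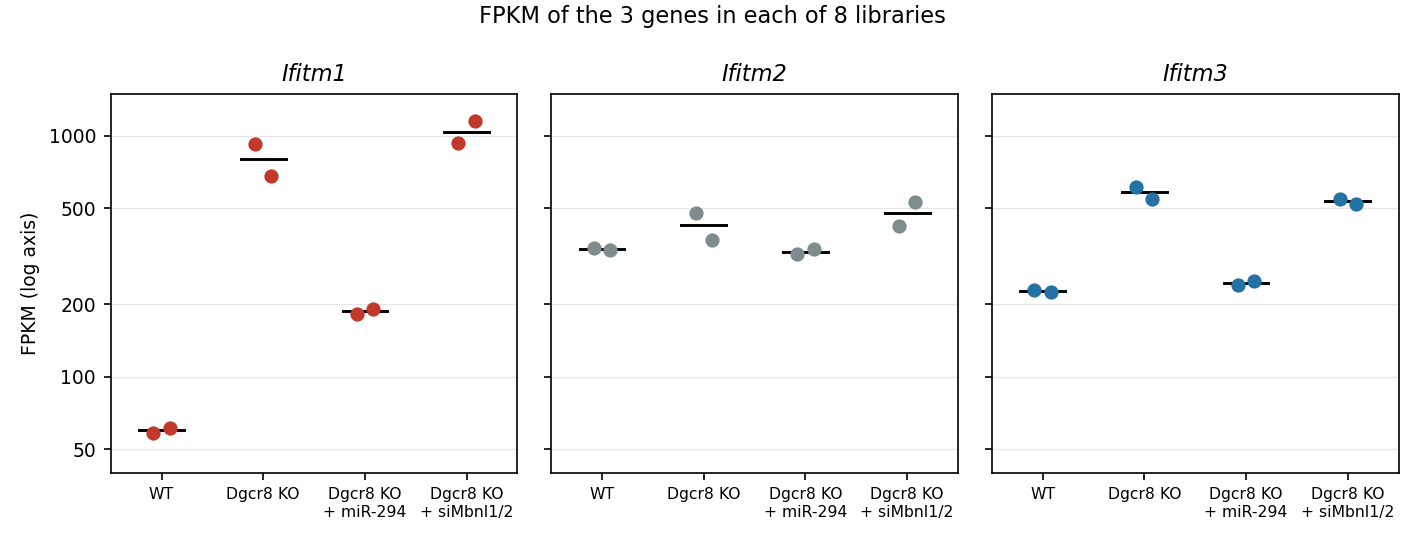
FPKM (log axis) of Ifitm1, Ifitm2 and Ifitm3 in each of 8 libraries, 2 per group; points are libraries and horizontal lines are group means. Ifitm1 runs from 58.3 FPKM in WT to 1148 with siMbnl1/2, Ifitm3 forms a low and a high pair of groups, and Ifitm2 stays between 322 and 533.

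All 3 members had Dgcr8 KO libraries above WT libraries without overlap, as did 40.8% of the 12786 genes, and all 3 had miR-294 libraries below Dgcr8 KO libraries, as did 43.5%. With siMbnl1/2 Ifitm1 was above Dgcr8 KO without overlap, as were 24.8% of genes, and Ifitm3 below, as were 13.9%. With miR-294 Ifitm1 and Ifitm3 were above WT, as were 32.6%. Since the members were chosen on these values, nothing is read from these counts. The comparisons share the Dgcr8 KO libraries, so a high Dgcr8 KO library raises one difference and lowers the other.

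The makeup of the 3-gene sum also differed between groups. In WT the sum was 630 and 625 FPKM, of which Ifitm1 made up 9.25% and 9.87% and Ifitm2 54.5% and 53.9%. In Dgcr8 KO the sum was 2022 and 1603 FPKM, of which Ifitm1 made up 45.8% and 42.7% and Ifitm2 23.8% and 23.1%. With miR-294 the sum was 747 and 780 FPKM, and Ifitm1 made up 24.5% in both libraries and Ifitm2 43.1% and 43.5%. With siMbnl1/2 the sum was 1908 and 2203 FPKM, and Ifitm1 made up 49.1% and 52.1% and Ifitm2 22.2% and 24.2%. Ifitm2 was thus the most abundant of the 3 genes in the WT and miR-294 libraries and the least abundant in the Dgcr8 KO and siMbnl1/2 libraries, save that in siMbnl1/2 replicate 2 Ifitm3 was lowest. The Ifitm3 share moved less, between 23.7% and 36.3% over the 8 libraries. In bulk RNA a larger share of expressing cells and more RNA per cell cannot be told apart.

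**Figure D2:**
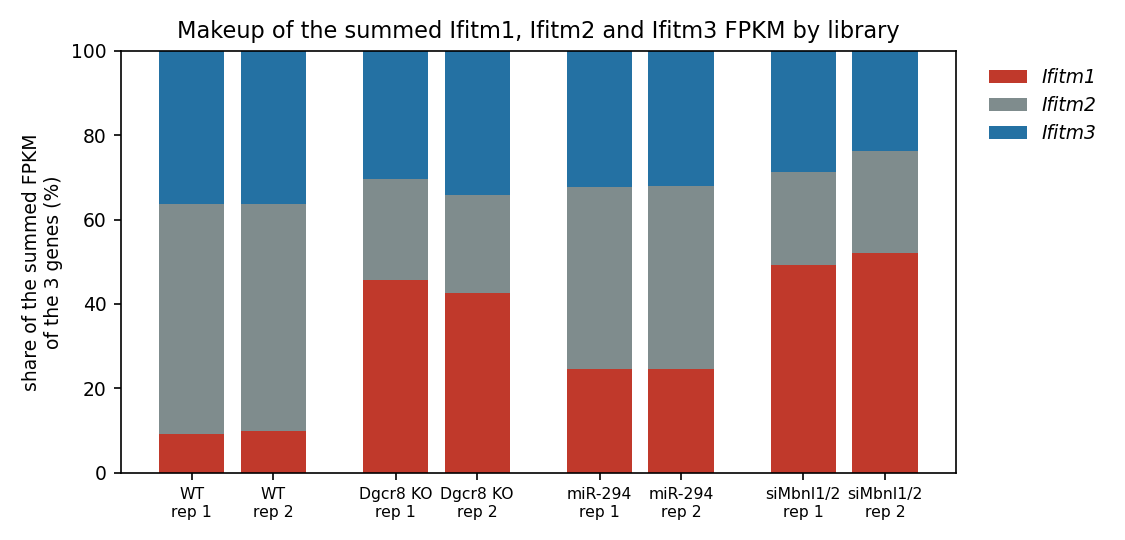
Share of the summed FPKM of Ifitm1, Ifitm2 and Ifitm3 held by each gene (%), one stacked bar per library. The Ifitm1 share is 9.25% and 9.87% in WT, 45.8% and 42.7% in Dgcr8 KO, 24.5% in both miR-294 libraries and 49.1% and 52.1% with siMbnl1/2.

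The other Ifitm genes were near or under 1 FPKM. Ifitm5, the bone-specific member of the family, was between 0.956 and 1.36 FPKM and did not pass the test in Dgcr8 KO against WT (-0.07 ± 0.11). Ifitm6 was between 0.104 and 0.403 FPKM, Ifitm10 between 0.0316 and 0.176, and Ifitm7, which lies on chromosome 16, between 0.477 and 1.37, and these 3 were too low to test. Of 14 symbols of the wider dispanin family, which share the membrane domain, 12 were in the table and 2 could be tested. The synapse gene Syndig1 was at 1.93 ± 0.031 FPKM in WT and rose to 6.12 ± 0.54 with the knockout (1.28 ± 0.15, adjusted p = 2.4e-04) and fell to 2.08 ± 0.501 with miR-294 (-1.21 ± 0.15, adjusted p = 4.7e-04).

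Most genes of the interferon receptor and Janus kinase list were higher in Dgcr8 KO. The list also holds genes that regulate the pathway, such as Socs1, Socs3, Ptpn2 and Pias1. Its counts therefore do not show how active the pathway was. Of 17 tested genes of 18 listed, 15 rose and 1 fell against WT (median 0.55, against 0 over all genes, of which 29.6% rose and 30.1% fell). The kinase Jak2 rose from 1.34 ± 0.108 FPKM to 7.0 ± 0.43 (1.77 ± 0.10, adjusted p = 1.3e-05). The interferon-gamma receptor chain Ifngr2 rose from 1.68 ± 0.121 to 4.75 ± 0.403 (1.10 ± 0.14), and Irf9, a DNA-binding factor of the interferon response, from 5.08 ± 0.173 to 11.4 ± 0.171 (1.03 ± 0.09). With miR-294, 11 of the 17 fell against Dgcr8 KO and 1 rose (median -0.59, against -0.06 over all genes, of which 29.2% fell and 22.9% rose). Jak2 fell to 2.14 ± 0.224 FPKM, Irf9 to 4.41 ± 0.217 and Ifngr2 to 1.98 ± 0.504. Among the genes that did not pass was the type I receptor chain Ifnar1, named after its values were seen, at 13.1 ± 0.506 FPKM in Dgcr8 KO and 13.0 ± 0.106 with miR-294.

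The list of interferon regulatory factors, which bind the response element, also holds 3 Irf2-binding proteins, and shares Irf9 with the receptor list. Of 9 tested genes, of 12 listed, 5 rose in Dgcr8 KO and 1 fell (median 0.61), where 29.6% of all genes rose and 30.1% fell. Among the 6 Irf genes tested 4 rose and 0 fell. The gene that fell was Irf2bpl, which encodes an Irf2-binding-like protein (-0.33 ± 0.11, adjusted p = 0.0297), a call lost in 8 of 15 alternatives. Irf2 rose from 0.325 ± 0.272 FPKM to 9.39 ± 0.522 (2.99 ± 0.15) and fell with miR-294 to 0.619 ± 0.00645 (-2.68 ± 0.15). Irf1 rose from 4.67 ± 0.518 to 34.3 ± 2.23 (2.64 ± 0.11, adjusted p = 3.8e-06) and fell to 12.2 ± 1.52 (-1.43 ± 0.11, adjusted p = 8.3e-05). Like Ifitm1, Irf1 with miR-294 remained above WT (1.21 ± 0.11, adjusted p = 3.8e-04). Irf2bp2, a partner of Irf2, rose from 7.92 ± 0.375 to 13.9 ± 0.584 (0.74 ± 0.08) and fell to 6.22 ± 0.0381 (-1.05 ± 0.08). In all, 6 of the 9 fell with miR-294 and 0 rose by limma, also at an unadjusted p under 0.05 (median -0.67). Over all genes 29.2% fell and 22.9% rose. Those of the list that fell were 4 Irf genes, Irf2bp2 and Irf2bpl, the last again with a call lost in 8 of 15 alternatives (-0.31 ± 0.11).

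Other genes known to be switched on by interferon moved the same way in the main. Of 29 tested, of 46 listed, 21 rose in Dgcr8 KO and 0 fell by limma, also at an unadjusted p under 0.05 (median 1.29). The shares over all genes were 29.6% and 30.1%. The list median was 0.71 over its genes with a mean of at least 5 FPKM, and 2.21 with a pseudocount of 0.1. The nucleic acid sensor Zbp1 rose from 0.116 ± 0.0343 FPKM to 16.6 ± 1.5 (3.98 ± 0.10), Oasl2 of the oligoadenylate synthetase family from 0.161 ± 0.165 to 10.7 ± 0.976 (3.34 ± 0.17), the immunoproteasome subunit Psmb8 from 0.0914 ± 0.00895 to 9.96 ± 1.66 (3.32 ± 0.18) and the apoptosis factor Xaf1 from 1.91 ± 0.323 to 16.1 ± 2.09 (2.56 ± 0.13). The filter took the mean over all libraries. A gene near 0 in WT, such as Zbp1, Oasl2 or Psmb8, therefore entered only through groups where it was higher, and could hardly fall. Part of the count of rises was thus set by the filter. Irf2 and the germ cell gene Prdm1 entered in the same way. With miR-294, 22 of the 29 fell against Dgcr8 KO and 2 rose (median -0.93), where 29.2% of all genes fell and 22.9% rose. Genes low with miR-294 as well, such as Psmb8 here and Irf2 among the regulatory factors, entered only through groups where they were higher. Part of the count of falls was thus also set by the filter. Zbp1 fell to 2.05 ± 0.174 FPKM, Oasl2 to 1.21 ± 0.29, Psmb8 to 0.789 ± 0.419 and Xaf1 to 4.28 ± 0.568. The 2 that rose, named after their values were seen, were the RNA sensor Ddx58, from 15.7 ± 1.04 to 30.7 ± 0.981 (0.92 ± 0.08), and Oas1a, from 3.96 ± 0.0852 to 5.39 ± 0.241 (0.36 ± 0.13), a call lost in 9 of 15 alternatives. Against WT, 14 of the 29 were higher with miR-294 and 3 lower (median 0.36, against -0.05 over all genes, of which 11.8% were higher and 14.7% lower). That count depends on single libraries: fewer were higher when any one WT or miR-294 library was left out, as was so over all genes. The list median was then 0.37 to 0.42. In WT the mean of each member was above those of all 29 tested genes, except that the membrane protein Bst2, another factor that holds back viruses, was above Ifitm1. Bst2 was at 92.4 ± 4.92 FPKM in WT and did not pass the test in Dgcr8 KO (97.7 ± 12.4) or with miR-294 (87.7 ± 2.1). Several interferon-induced genes were close to 0 everywhere: Mx1 was at no more than 0.122 FPKM and Ifit3 at no more than 0.13.

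With siMbnl1/2, 0 genes of the receptor list, the regulatory factors or the other interferon-stimulated genes passed the test against Dgcr8 KO, where 1.11% of all genes did. At an unadjusted p under 0.05 limma gave 1, 0 and 7 genes, all higher. The share of all genes at that threshold is not given here, so nothing is read from these counts. Over all genes the calls by adjusted p were also mostly higher (111 to 31). Without siMbnl1/2 replicate 2, 2 of the interferon-stimulated genes were called higher and 1 lower, and the Irf2-binding-like gene Irf2bpl was called lower (adjusted p = 0.0456).

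**Figure D3:**
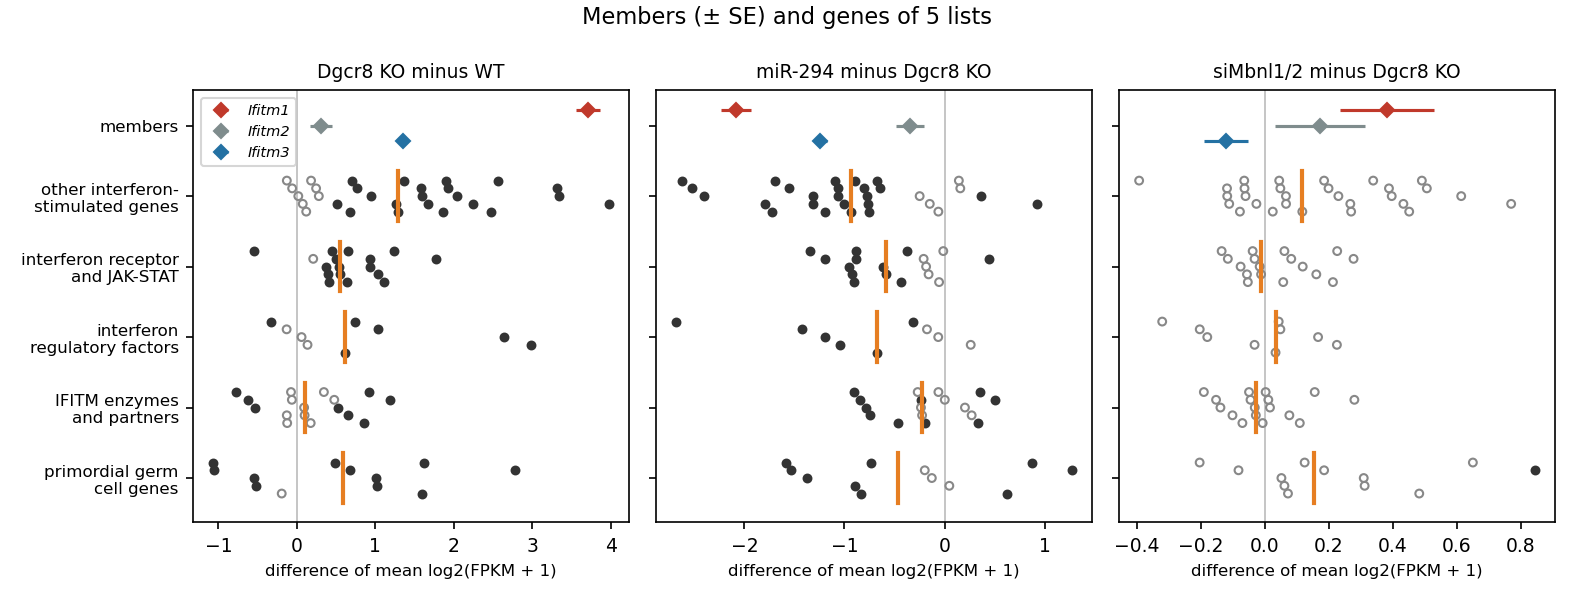
Differences of mean log2(FPKM + 1) for the members (diamonds, ± SE) and for genes of 5 lists in 3 comparisons, on horizontal axes that differ in range; filled points passed limma's test, open points did not, and orange bars are list medians. In Dgcr8 KO against WT the interferon-stimulated genes have a median of 1.29, and Ifitm1, at 3.71, lies near the highest of them on this scale, while Ifitm2 lies at 0.31. The scale understates changes of genes near 0. With a pseudocount of 0.1 the list median is 2.21 and Ifitm1 is at 3.73.

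Interferon-induced transmembrane proteins are modified after translation: palmitoyl transferases of the Zdhhc family attach lipid, Nedd4 adds ubiquitin, Setd7 methylates, and the adaptor AP-2 draws Ifitm3 into endosomes. The 17 genes of this machinery, all tested, went both ways in Dgcr8 KO, with 5 higher and 3 lower (median 0.10), of all genes 29.6% and 30.1%. Setd7 rose from 5.63 ± 0.0445 FPKM to 14.1 ± 1.21 (1.18 ± 0.17), the palmitoyl transferase Zdhhc20 from 7.22 ± 0.0235 to 14.5 ± 1.26 (0.92 ± 0.09) and the oxysterol-binding protein gene Osbp from 8.50 ± 0.227 to 16.2 ± 0.212 (0.85 ± 0.07). The AP-2 subunit Ap2s1 fell from 80.1 ± 2.23 to 46.4 ± 5.83 (-0.78 ± 0.10). With miR-294, 7 fell and 3 rose (median -0.22), where 29.2% of all genes fell and 22.9% rose. Setd7 was at 7.11 ± 1.42, Zdhhc20 at 7.63 ± 0.178, Osbp at 11.4 ± 0.0846 and Ap2s1 at 66.1 ± 4.87. Each of these 4 passed the test against Dgcr8 KO. With siMbnl1/2, 0 passed limma's test, and 1 was higher at an unadjusted p under 0.05.

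Genes of early germ cells, in which Ifitm1 and Ifitm3 are also active, went both ways. Of 12 tested, of 14 listed, 7 rose in Dgcr8 KO and 4 fell (median 0.58), where 29.6% of all genes rose and 30.1% fell. The germ cell determinants Prdm1 and Tfap2c rose, Prdm1 from 0.586 ± 0.097 FPKM to 9.92 ± 1.65 (2.78 ± 0.19) and Tfap2c from 8.50 ± 0.258 to 28.1 ± 1.68 (1.61 ± 0.20). Alkaline phosphatase, Alpl, rose from 38.3 ± 1.46 to 118 ± 18.5 (1.59 ± 0.13). The RNA-binding protein gene Dazl fell from 5.83 ± 0.354 to 2.26 ± 0.0894 (-1.07 ± 0.13). With miR-294, 6 fell and 3 rose (median -0.47), where 29.2% of all genes fell and 22.9% rose. Prdm1 was at 2.64 ± 0.553, Tfap2c at 9.05 ± 0.0108, Alpl at 44.7 ± 3.55 and Dazl at 5.0 ± 0.424. With siMbnl1/2 the count was 1, Dppa3, a maternal factor of early embryos and germ cells, at 10.6 ± 1.39 against 5.42 ± 0.00303 in Dgcr8 KO (0.84 ± 0.10, adjusted p = 0.0190). That call was lost in 7 of 15 alternatives, which leave out any one WT, Dgcr8 KO or miR-294 library or fit only the compared groups; the highest adjusted p there was 0.175.

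The genes around the cluster did not move as one block. Within 100 kb of its ends lie 21 other entries, of which 11 were tested. In Dgcr8 KO 5 rose and 2 fell (median -0.07), where 29.6% of all genes rose and 30.1% fell. The gene closest to Ifitm2 among those that rose, the collagen-sugar hydrolase gene Pgghg, was at 4.61 and 4.25 FPKM in WT and at 8.51 and 6.61 in Dgcr8 KO (0.65 ± 0.17, adjusted p = 0.0112, and up to 0.0723 without WT replicate 2 or Dgcr8 KO replicate 1). On the Ifitm3 side the glycosyltransferase B4galnt4 (0.81 ± 0.14), the desmosome gene Pkp3 (0.59 ± 0.16), the Toll and interleukin receptor inhibitor Sigirr (0.80 ± 0.10) and the scramblase-family gene Ano9 (1.17 ± 0.13) rose. On the other side the proteasome gene Psmd13 fell by 0.58 ± 0.07 and the vesicle transport gene Bet1l by 0.50 ± 0.12, and Ric8a (-0.23), Sirt3 (-0.24), Gm15542 (-0.20) and Ifitm5 did not pass. With miR-294, 4 fell (Pgghg -0.62, B4galnt4 -0.75, Pkp3 -0.51, Ano9 -0.60) and 1 rose (Psmd13 0.41), while Sigirr was at 0.07 and did not pass. Over all genes 29.2% fell and 22.9% rose. The Pkp3 calls were lost without any one WT library or without Dgcr8 KO replicate 1, where adjusted p-values reached 0.0881 in Dgcr8 KO and 0.167 with miR-294, and for miR-294 leaving out any one miR-294 library, the replicate block, quantile normalization and no filter on low values ended it too. Leaving out Dgcr8 KO replicate 1 or any one miR-294 library also ended the Pgghg call with miR-294 (adjusted p up to 0.0949). With siMbnl1/2, 0 of the 11 passed limma's test, also at an unadjusted p under 0.05. The untested entries were at no more than 1.12 FPKM, among them RP24-243J4.5, which overlaps Ifitm2 on the same strand and was at no more than 0.294 FPKM.

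**Figure D4:**
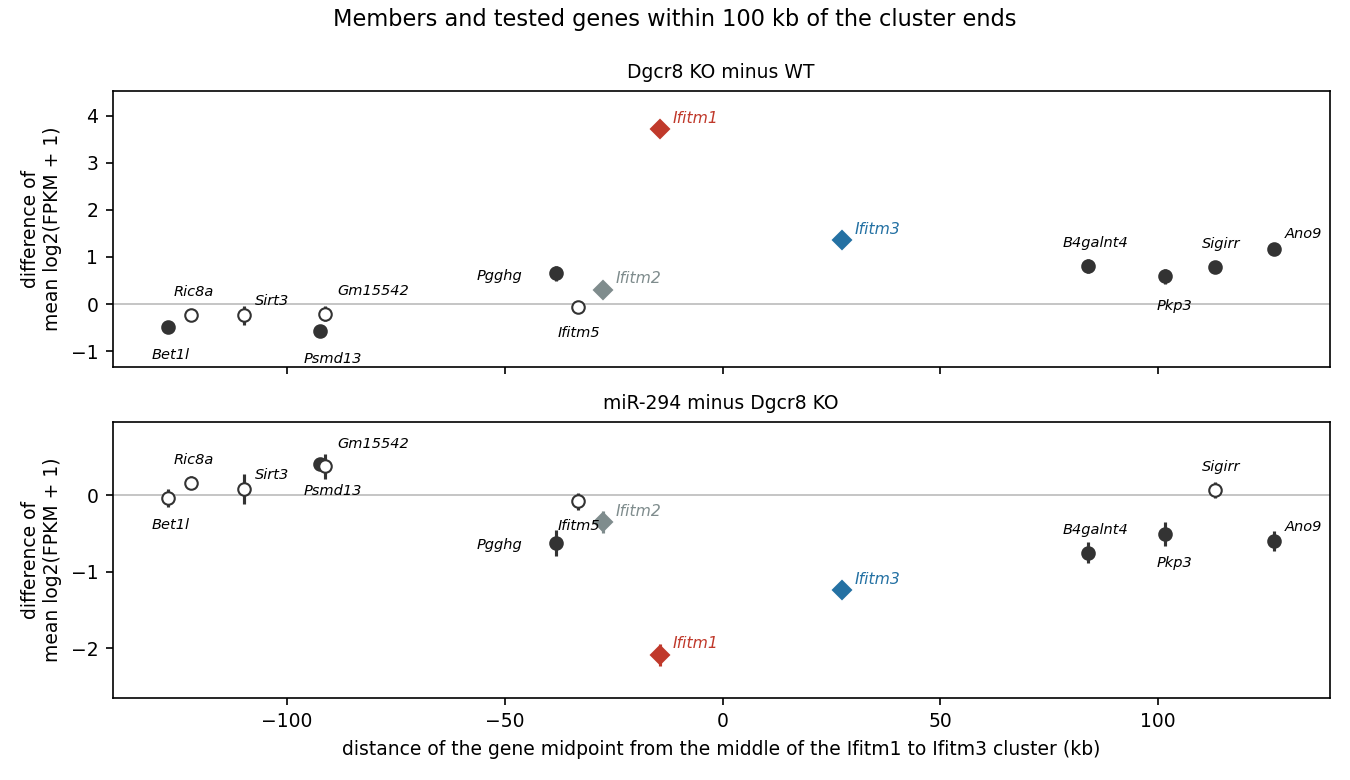
Differences of mean log2(FPKM + 1) ± SE of the members (diamonds) and of the 11 tested genes within 100 kb of the cluster ends, by distance of the gene midpoint from the middle of the cluster (kb); filled circles passed limma's test and open circles did not. In Dgcr8 KO against WT Ifitm1 is at 3.71, and the highest neighbour, Ano9, is at 1.17.

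Among 11462 genes admitted by symbol, those whose log2(FPKM + 1) ran most nearly parallel to each member over the 8 libraries differed between members. For Ifitm1 they were Hbp1 (Pearson r = 0.999), Ccpg1, Pou6f1, Npnt and Fstl1 (0.997). Hbp1, a repressor of cell cycle genes, averaged 18.7 FPKM in WT, 25.8 after the mimic, 36.7 in Dgcr8 KO and 39.3 after the siRNAs, the same order of groups as Ifitm1 over a narrower range. For Ifitm3 they were Trim47 (0.997), Tbcel, Vezf1, Kif1b and Prtg (0.995). The ubiquitin ligase gene Trim47 was at 1.16 FPKM in WT and 1.25 with miR-294, and at 15.2 in Dgcr8 KO and 13.0 with siMbnl1/2. For Ifitm2 they were Chpf2 (0.988), Ubac2, Top3b, Idh3b and Hint2 (0.984). In each of these 5, as in Ifitm2, Dgcr8 KO replicate 1 was above replicate 2 and siMbnl1/2 replicate 2 above replicate 1: the topoisomerase gene Top3b was at 114 and 92.6 FPKM in the first pair and at 99.4 and 135 in the second. Between members r was 0.94 for Ifitm1 and Ifitm3, 0.81 for Ifitm1 and Ifitm2 and 0.82 for Ifitm2 and Ifitm3. All r describe 8 libraries in 4 groups and share the libraries' scaling.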

How the data were processed

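The table holds FPKM per gene and library, deposited by the authors; tools listed in the submitters' processing notes are Cufflinks 2.2.1 and STAR 2.5.0, with the build mm10. RNA was extracted with Trizol and libraries were made by a dUTP protocol, per the labels' protocols, which call the material polyA RNA while the design text calls it total RNA. The annotation release and the strand setting are not given in the sources used here. Depth is unknown, so no counting interval is given; FPKM summed to 473746 to 571508 per library, and 12386 to 12860 genes reached 1 FPKM.

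Values were analysed as log2(FPKM + 1), which understates changes of low genes. The 12786 genes with a mean of at least 1 FPKM were fitted with 4 group means over 8 libraries by limma 3.58.1 (trend, robust; R 4.3.3; statmod 1.5.0), after a check on simulated data, and called at a two-sided Benjamini-Hochberg adjusted p under 0.05. Dgcr8 KO was compared with WT, both transfected groups with Dgcr8 KO, and the miR-294 group with WT. The members and all gene lists were chosen with earlier results of these data known. The text names the members, Dgcr8 with the siRNA targets, other Ifitm genes, tested genes within 100 kb, up to 4 called genes per list with the largest change in Dgcr8 KO, and per member the 5 genes with the highest r; 1 gene that this rule takes is not reported here. Lists of stem cell, fibroblast and blood markers served as checks; the targets Mbnl1 and Mbnl2 were added to the rule later. Sequences come from RefSeq (GRCm38.p6) and GENCODE M21, read with Biopython 1.88 under Python 3.11.15.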

Additional observations from a re-analysis of the deposited data

How the results depend on the processing

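Of 240 values recomputed under alternatives, 217 stayed within their limits and 23 moved. For a member the limit was the replicate spread, the square root of the summed variances of both compared groups. For a count of genes it was 1.5 times. Filters, the fit to the compared groups alone, the replicate block and leaving out 1 library could not take a member past its limit. Only the pseudocount, median-of-ratios scaling and quantile normalization could, so the tally says little about members under the other settings. No difference larger than the replicate spread changed sign. Within that spread Ifitm2 in siMbnl1/2 minus Dgcr8 KO went from 0.17 to -0.02 without Dgcr8 KO replicate 2. Quantile normalization moved Ifitm2 (0.59) and Ifitm3 (1.70) in Dgcr8 KO minus WT, Ifitm1 (-2.40) and Ifitm3 (-1.54) in miR-294 minus Dgcr8 KO, and Ifitm2 (0.0171) and Ifitm3 (0.17) in miR-294 minus WT. Median-of-ratios scaling gave 0.0248 and 0.18 for the last pair. The cause was not tested.

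In siMbnl1/2 minus Dgcr8 KO 142 genes were called, and 61 without a filter on low values, 4 with the libraries of the comparison alone, and 15 to 650 with 1 library left out. In miR-294 minus WT 3390 were called, 6311 with the libraries of the comparison alone, and 1242 to 4578 with 1 library left out. The split of higher to lower genes in miR-294 minus WT was 1508 to 1882, and 2020 to 1535 under median-of-ratios scaling. In siMbnl1/2 minus Dgcr8 KO it was 111 to 31, and 97 to 75 under median-of-ratios scaling, 117 to 88 under quantile normalization, 37 to 24 without a filter, 1 to 3 with the libraries of the comparison alone and 3 to 12 without Dgcr8 KO replicate 2. In miR-294 minus Dgcr8 KO it was 2934 to 3737, and 3423 to 3420 under median-of-ratios scaling and 3279 to 3124 under quantile normalization. At a mean of at least 5 FPKM 13 interferon-stimulated genes were tested, of which 8 rose in Dgcr8 KO, and 9 fell and 1 rose with miR-294; of 12 receptor pathway genes 6 fell and 1 rose with miR-294. List medians that moved by over 1.5 times at that filter included that of the interferon-stimulated genes in Dgcr8 KO minus WT (1.29 to 0.71). In that comparison those of the regulatory factors (0.61 to 0.40) and the modifying machinery (0.10 to 0.02) moved too. In miR-294 minus Dgcr8 KO they included those of the receptor list (-0.59 to -0.29) and the germ cell list (-0.47 to -0.79). In miR-294 minus WT they included those of the interferon-stimulated genes (0.36 to 0.08) and the regulatory factors (-0.12 to -0.18). Quantile normalization moved the germ cell median in miR-294 minus Dgcr8 KO to -0.31. It moved the machinery median in Dgcr8 KO minus WT to 0.20.

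Same-numbered libraries of different groups shared little deviation (r of -0.05 to 0.19 over 6 pairs of groups, highest for WT and Dgcr8 KO). With 2 libraries per group this cannot exclude that the replicate numbers pair the samples. With the replicate number as a block, 33 genes were called in siMbnl1/2 minus Dgcr8 KO. The 2 libraries of each group limit every comparison, and depth could not be assessed from FPKM.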
